A study of Mus musculus with 4 samples.

Results

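The actin cytoskeleton of mouse blastocysts was described here through 10 genes: the cytoplasmic actins Actb and Actg1, and the actin-binding proteins Cfl1, Pfn1, Tmsb10, Myl6, Myh9, Vil1, Actn4 and Tpm1. They were chosen by name, with earlier results of these data known. All 10 were listed among the 20714 gene symbols shared by the RNA-seq and Ribo-seq tables. The libraries came from wild-type embryos of 4-week-old C57BL/6J females mated with PWK/PhJ males, although the strain label reads C57BL/6N x PWK. The females were injected with the gonadotropins PMSG and hCG to induce ovulation, and the embryos were otherwise untreated. The paper cautions that superovulation and culture may affect the quality of embryos. Embryos were taken at the 8-cell stage, cultured in KSOM medium to blastocysts, and freed of the zona pellucida. RNA-seq by Smart-seq2 measured mRNA, and Ribo-seq measured ribosome-protected fragments (RPFs), the pieces of mRNA that a ribosome shields from nuclease, with 2 libraries for each assay. All 4 libraries share stage, genotype and cross, so the comparison the design implies is RPF against mRNA. Each library pools cells of the whole embryo, so fewer cells of a type and less RNA per cell cannot be told apart.

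Actin monomers polymerize into filaments that give cells their shape, tension and motility. Profilin and the beta-thymosins hold the pool of monomers, cofilin severs old filaments, tropomyosin and alpha-actinin coat and crosslink them, and non-muscle myosin II pulls on them. In the mouse embryo this cortical network drives compaction and the sorting of outer from inner cells. Villin is an actin bundler of intestinal and other microvilli.

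The values were FPKM, fragments per kilobase of transcript (mRNA) or of coding sequence (RPF) scaled to the number of mapped fragments of the library. The low FPKM fell on steps that implied 5458668 and 5174660 fragments in the RNA-seq replicates and 533544 and 484128 in the Ribo-seq replicates. On a sequence of 1000 bases, 1 fragment was thus worth 0.229 and 0.242 FPKM in RNA-seq and 2.34 and 2.58 FPKM in Ribo-seq. All 6 trophectoderm markers were at 1 FPKM or more in every library. All 4 epiblast markers were above 0 in every library, but only 3 and 2 reached 1 FPKM in the mRNA replicates. The 5 cumulus markers were at 0 throughout. The highest of 7 oocyte markers was at 1.13 and 0 FPKM of mRNA and 1.74 and 1.92 FPKM of RPF. The highest of 4 blood markers was at 1.62 and 0.729 FPKM of mRNA and 0 of RPF. Of 4 primitive endoderm markers, 2 were at 0 in mRNA replicate 2. The summed level of the lineage markers differed between assays to unequal extents, at 2803 to 3021 FPKM of mRNA and 5369 to 5812 FPKM of RPF for trophectoderm, 57.7 to 144 and 707 to 846 FPKM for epiblast, and 9.34 to 12.5 and 143 to 154 FPKM for primitive endoderm. Their part in the comparisons of RPF with mRNA was not tested.

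The cytoplasmic actins are close copies at the level of DNA, which bears on how far short reads can separate them. Actb lies on chromosome 5 (143664794 to 143668433, minus strand) and Actg1 on chromosome 11 (120207004 to 120209856, minus strand) of NCBIM37, the assembly of mm9. Their coding sequences of 1128 bases differed at 128 of 1125 compared bases, an identity of 88.6%. The first 60 coding bases are shown because they hold a stretch where the genes can be told apart. Both stretches lie in exon 2, at chr5:143667306-143667365 and chr11:120209346-120209405, and capitals mark the 9 bases that differ.
Actb: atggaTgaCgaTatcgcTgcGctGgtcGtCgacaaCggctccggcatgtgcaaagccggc
Actg1: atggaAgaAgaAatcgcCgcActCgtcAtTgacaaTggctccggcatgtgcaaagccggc

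Of the 1101 windows of 28 bases along the Actb coding sequence, 10.7% also occurred without a mismatch in Actg1, and 34.0% did so with at most 2 mismatches, the number the authors allowed in Ribo-seq alignments. The plot of mismatches along Actb shows these windows in a few blocks rather than spread evenly. The Actg1 coding windows had a median of 5 places in the genome and the Actb windows a median of 1, and no window of either gene exceeded the 20 places the authors allowed. Of the Actb windows, 37.5% occurred in another coding gene and 54.1% had 1 place or fewer. For Actg1, these shares were 12.3% and 0%. The division of reads between both genes is therefore uncertain in the shared blocks, and many windows outside them also have other places in the genome.

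**Figure D1:**
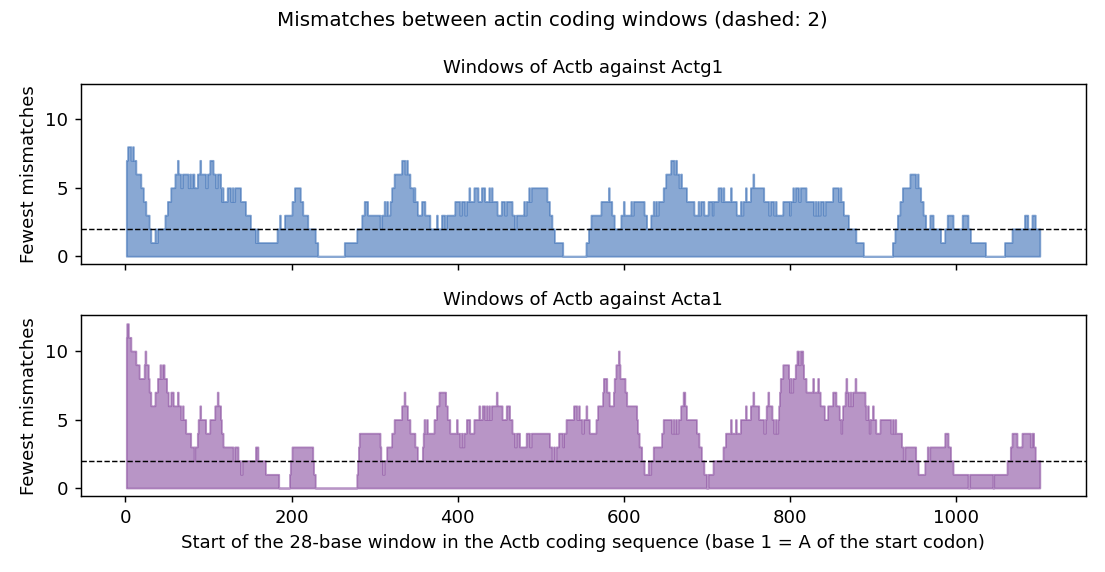
Fewest mismatches between each 28-base window of the Actb coding sequence and any window of Actg1 (top) or Acta1 (bottom), plotted against the start of the window in bases from the start codon. Windows at 0 are shared exactly, and the dashed line marks the 2 mismatches allowed. Both panels alternate between blocks at 0 and blocks above the line.

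Tmsb10 and its paralog Tmsb4x encode small monomer-sequestering peptides, and their whole coding sequences are printed because their short length, 135 bases each, enters directly into their RPF level. Tmsb10 lies on chromosome 6 (chr6:72907612-72908006 from the first to the last coding base, minus strand, exons 2 to 3) and Tmsb4x on chromosome X (chrX:163645433-163645968, minus strand, exons 2 to 3). They differed at 40 of 135 bases (70.4% identity), marked in capitals.
Tmsb10: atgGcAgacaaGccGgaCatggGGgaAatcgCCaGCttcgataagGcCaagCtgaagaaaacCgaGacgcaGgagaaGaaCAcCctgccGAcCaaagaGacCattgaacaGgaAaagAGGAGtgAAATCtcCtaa
Tmsb4x: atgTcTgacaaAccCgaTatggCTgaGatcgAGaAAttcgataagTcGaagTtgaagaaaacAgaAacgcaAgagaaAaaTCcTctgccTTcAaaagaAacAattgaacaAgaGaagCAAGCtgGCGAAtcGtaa

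No 28-base window of Tmsb10 occurred in another coding gene, although its windows had a median of 4 places in the genome. Moreover, a coding sequence of 135 bases has an effective length of only 42.2 bases under the default fragment model of Cufflinks, so each footprint on Tmsb10 counted for 44.4 and 49.0 FPKM in the Ribo-seq replicates. For Actb, each footprint counted for 2.02 and 2.23 FPKM.

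Among the actins, Actb had the highest mRNA level, at 5849 and 7344 FPKM in replicates 1 and 2, and its RPF level was 10550 and 10403 FPKM. Actb mRNA ranked 6 and 1 among all genes, while its RPF ranked 15 and 20. Actg1 had 1987 and 1938 FPKM of mRNA and 6709 and 6269 FPKM of RPF. The Actb to Actg1 ratio was 2.94 and 3.79 for mRNA and 1.57 and 1.66 for RPF. This ratio was lower in both Ribo-seq libraries than in either RNA-seq library, although an exact permutation test of 2 against 2 libraries cannot go below p = 0.333. Together these genes held 1.51% and 1.74% of the summed mRNA FPKM and 0.906% and 0.850% of the summed RPF FPKM. These are shares of FPKM, which is per length, and not of fragments. Of the implied fragments, Actb alone held 1.01% and 1.26% in RNA-seq and 0.979% in Ribo-seq replicate 1. In Ribo-seq replicate 2 it had 4673 of 484128.

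The monomer-binding and severing proteins spanned a wide range. Tmsb10, which sequesters monomers, had 4318 and 4021 FPKM of mRNA and 40732 and 47916 FPKM of RPF. Its RPF ranked 3 and 2 among all genes and was above that of Actb, whereas its mRNA was below that of Actb in both replicates. The Tmsb10 to Actb ratio was 0.738 and 0.548 for mRNA and 3.86 and 4.61 for RPF. With the annotated coding length in place of the effective length, Tmsb10 RPF was 12731 and 14977 FPKM against 8678 and 8558 FPKM for Actb, so the order held on both scales and the ratio fell to 1.47 and 1.75. In footprints the order was the opposite, with 917 and 979 implied for Tmsb10 and 5223 and 4673 for Actb.

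Pfn1 (chromosome 11, 70465352 to 70468146), which exchanges the nucleotide on monomers and delivers them to growing ends, had 1649 and 1878 FPKM of mRNA and 4724 and 4953 FPKM of RPF. Cfl1 (chromosome 19, 5490485 to 5494029), the main non-muscle cofilin, had 621 and 653 FPKM of mRNA and 2247 and 2901 FPKM of RPF. The Pfn1 to Cfl1 ratio was 2.66 and 2.88 for mRNA and 2.10 and 1.71 for RPF, so Pfn1 was the higher of the pair in every library, and with annotated lengths the RPF ratio was 1.57 and 1.27. Pfn1 had no window in another coding gene, while 47.0% of the Cfl1 windows occurred in 1 other coding gene. These Cfl1 windows, and its length, rest on a GENCODE model of 684 coding bases, which need not be the model the authors used.

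Non-muscle myosin II showed a large gap between its chains. Myl6 (chromosome 10, 127927916 to 127930931), an essential light chain, had 1406 and 1590 FPKM of mRNA and 4946 and 5654 FPKM of RPF. Myh9 (chromosome 15, 77591017 to 77672605), the heavy chain of myosin IIA, had 25.8 and 26.2 FPKM of mRNA and 176 and 173 FPKM of RPF. The Myl6 to Myh9 ratio was 54.5 and 60.7 for mRNA and 28.2 and 32.7 for RPF, per length in both assays. With annotated lengths it was 39.2 and 43.6 for mRNA and 16.4 and 19.02 for RPF. For Myl6, 59.9% of the windows occurred in another coding gene.

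The filament crosslinker Actn4, a non-muscle alpha-actinin (chromosome 7, 29678267 to 29747359), was the 1 gene of the 10 whose RPF FPKM lay below its mRNA FPKM in every pair of libraries. For 8 others, RPF FPKM lay above mRNA FPKM in every pair. Before centring, the median of the genes tested below was itself 1.26 higher in RPF on the log2 scale. An RPF level above the mRNA level was thus usual and not particular to these genes. The Actn4 mRNA level was 86.8 and 82.1 FPKM and its RPF level 51.2 and 63.3 FPKM. The RPF level rested on 69.4 and 77.8 implied footprints, with exact Poisson 95% intervals of 54.0 to 87.7 and 61.5 to 97.1 that cover counting error only. Actn4 mRNA ranked 798 and 857 among all genes, and its RPF ranked 2859 and 2433.

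Tpm1 (chromosome 9, 66870397 to 66897213), a tropomyosin that lines filaments and limits the access of other proteins, had 333 and 297 FPKM of mRNA and 718 and 693 FPKM of RPF. Vil1 (chromosome 1, 74455950 to 74482133) was listed at 0 and 0.199 FPKM of mRNA and at 0 in both Ribo-seq libraries. A floor of 3 fragments was worth 0.188 and 0.198 FPKM for Vil1 mRNA and 2.46 and 2.71 FPKM for its RPF. The 1 value above 0 implied 3.02 fragments (exact Poisson 95% interval of 0.626 to 8.79), and the interval of a count of 0 reached 3.69. Vil1 RPF was not detectable at this depth, and its mRNA was at the floor.

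**Figure D2:**
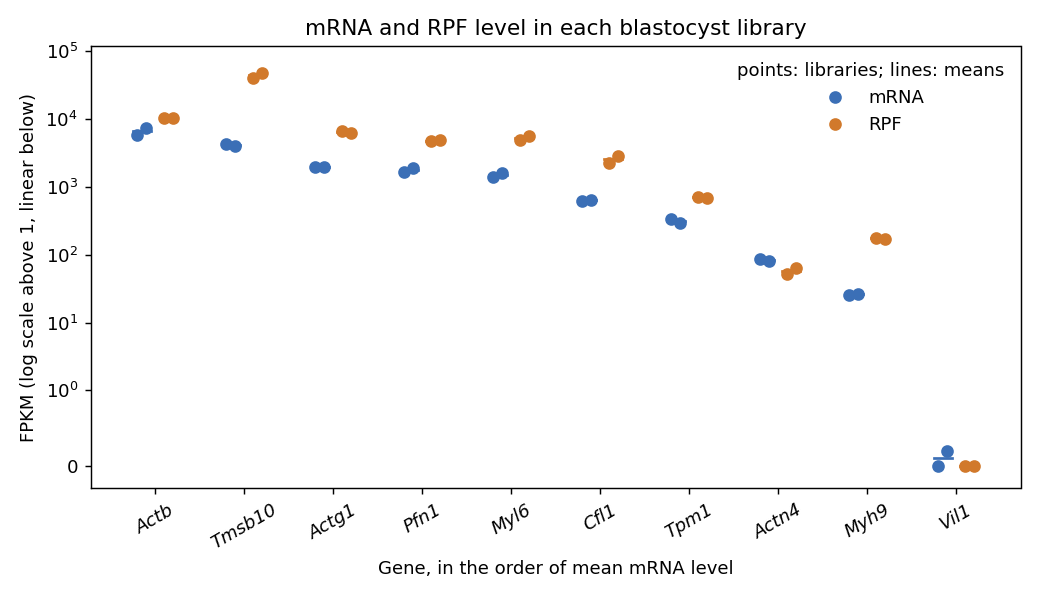
FPKM of the 10 genes in each blastocyst library (points) with the mean of each assay (lines), on an axis that is logarithmic above 1 and linear below. Tmsb10 has the highest RPF, Actb the highest mRNA, and Actn4 is the gene with RPF below mRNA.

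Within each assay, the replicates were close enough to order the genes. For mRNA the order was Actb, Tmsb10, Actg1, Pfn1, Myl6, Cfl1, Tpm1, Actn4, Myh9 and Vil1, and the values of no neighbouring pair overlapped. For RPF it was Tmsb10, Actb, Actg1, Myl6, Pfn1, Cfl1, Tpm1, Myh9, Actn4 and Vil1, and only the ranges of Myl6 and Pfn1 overlapped. The replicates of the tested genes differed by at most 0.33 for mRNA and 0.37 for RPF on the log2 scale. As sums, the 10 genes held 3.13% and 3.35% of all mRNA FPKM and 3.72% and 4.03% of all RPF FPKM. Tmsb10, with its short effective length, made up 40732 and 47916 of their 70853 and 79026 RPF FPKM. Of the implied fragments, the 10 genes held 1.85% and 2.11% in RNA-seq and 2.27% and 2.30% in Ribo-seq.

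The RPF level was next compared with the mRNA level of the same gene. Both were taken as log2(FPKM+1), fitted with limma, and the difference was centred on the median of 8327 genes with a mean of at least 1 FPKM in both assays. Before centring, that median was 1.26. FPKM of transcripts and of coding sequences are scaled to different totals, so each difference is given relative to the median gene. A gene was called at a Benjamini-Hochberg adjusted p under 0.05 and a difference of at least 1. Of all genes tested, 9.13% were called higher in RPF and 3.24% lower, 12.4% in either direction. Of the 9 genes tested here, Tmsb10 and Myh9 were called higher and Actn4 lower. Their median difference was 0.46, beside 0 for all genes, and Vil1 was under the minimum.

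Tmsb10 had the largest difference of the 9 genes, at 2.15 ± 0.25 (SE, adjusted p = 0.0246), or 4.42-fold. It lay above 94.9% of all genes. All 29 tested genes with a coding sequence under 200 bases had a median difference of 1.37, whereas the 4417 genes of 600 to under 2000 bases had a median of -0.0018. With annotated lengths, the Tmsb10 difference was 1.24 (adjusted p = 0.0505) and was no longer called, nor was it after quantile normalization (1.01, adjusted p = 0.0664). Over the alternatives that kept all 4 libraries, its adjusted p ranged from 0.00525 without centring to 0.0885 with the replicate number as a block.

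Myh9 had a difference of 1.44 ± 0.23 (adjusted p = 0.0400), or 2.71-fold, above 88.1% of all genes. Its coding sequence of 5883 bases is long, and the 235 genes of at least 5000 bases had a median difference of -0.43. Its depth was high, with 533 and 475 implied footprints. Nevertheless, its call was lost with a pseudocount of 0.1 (1.35, adjusted p = 0.0606) and after scaling each library to the same summed FPKM (1.13, adjusted p = 0.0589), as well as after quantile normalization (1.04, adjusted p = 0.0623). Over the alternatives that kept all 4 libraries, its adjusted p ranged from 0.00567 without centring to 0.107 with the replicate number as a block.

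Actn4 had a difference of -1.82 ± 0.26 (adjusted p = 0.0314), and 5.56% of all genes lay below it. Its coding sequence of 2739 bases falls in a class of 1656 genes with a median difference of -0.05. Its call was lost without centring (-0.56, adjusted p = 0.143) and with the replicate number as a block (-1.82, adjusted p = 0.0965). It was kept with a pseudocount of 0.1 (-1.96, adjusted p = 0.0452) and after quantile normalization (-2.21, adjusted p = 0.0270). The same held for equal summed FPKM (-2.13, adjusted p = 0.0255) and annotated lengths (-1.71, adjusted p = 0.0344).

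With any 1 library left out, the 3 differences kept their sign and stayed above 1 in absolute size. Without RNA-seq replicate 1 or 2, the differences were 2.22 and 2.09 for Tmsb10, 1.45 and 1.44 for Myh9, and -1.76 and -1.86 for Actn4. None of the 8245 or 8255 genes tested was then called by limma, although 1317 and 1260 had an unadjusted p under 0.05. The adjusted p of the 3 genes lay between 0.290 and 0.317 in these fits. Without Ribo-seq replicate 1 or 2, Tmsb10 was at 2.17 and 1.87, Myh9 at 1.34 and 1.30, and Actn4 at -1.76 and -2.13. In each fit with a library left out, the spread came only from the assay that kept both libraries. Calls were therefore not compared between these fits.

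The other 6 genes were not called. Actb had a difference of -0.58 ± 0.26 (adjusted p = 0.198) and Actg1 of 0.46 ± 0.24 (adjusted p = 0.241). With the values of both actins summed as 1 feature, an alternative chosen after seeing the data, the difference was -0.27 ± 0.25 (adjusted p = 0.485). Among the monomer-binding proteins, Cfl1 had 0.74 ± 0.27 (adjusted p = 0.139) and Pfn1 had 0.20 ± 0.24 (adjusted p = 0.598). Myl6 had 0.56 ± 0.25 (adjusted p = 0.199) and Tpm1 had -0.10 ± 0.24 (adjusted p = 0.799). Without centring, Actg1, Cfl1, Pfn1, Myl6 and Tpm1 were called higher, with differences of 1.16 to 2.003. That fit, which adds 1.26 to every difference, called 4113 of all 8327 genes higher and 65 lower. With centring, all 6 values lay between -0.76 and 0.79, the bounds of the middle 50% of all genes.

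**Figure D3:**
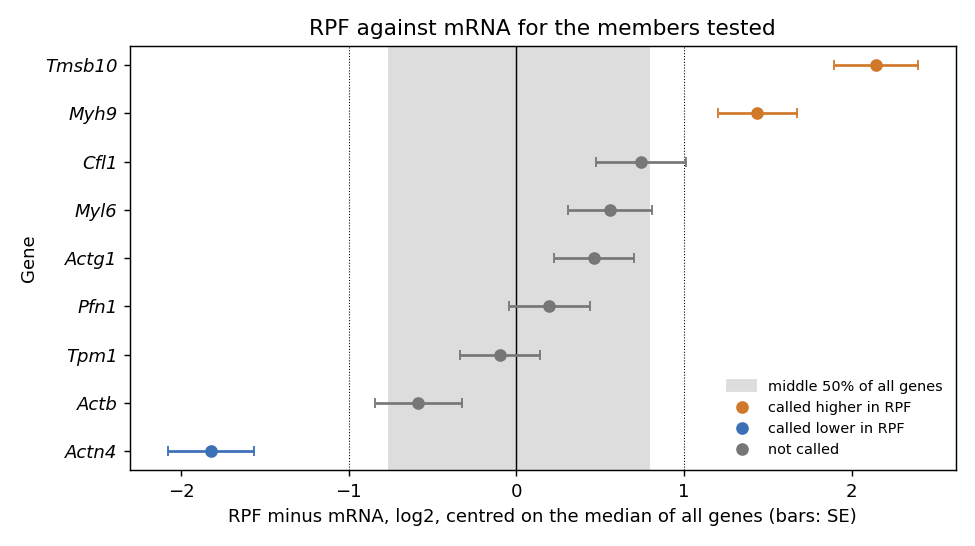
Centred log2 difference of RPF from mRNA for the 9 genes tested (points, with bars for the SE). Grey shading marks the middle 50% of all genes and dotted lines mark -1 and 1. Tmsb10 and Myh9 lie to the right of 1, Actn4 lies to the left of -1, and the other 6 points fall within the shading.

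Paralogs were compared within each assay, since many members have a close relative with the same role. The order of Myh9 and Myh10, the heavy chain of myosin IIB, differed between assays. Their ratio was 0.688 and 0.716 for mRNA and 1.37 and 1.54 for RPF, from a mean Myh10 level of 37.0 FPKM for mRNA and 120 FPKM for RPF. Myh10 had a difference of 0.41 ± 0.24 (adjusted p = 0.303), and its gap to Myh9 was not tested.

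Tpm1 changed places with Tpm3 and Tpm4, the tropomyosins nearest to it in level, and stayed above Tpm2, at a mean of 1.66 FPKM of mRNA and 19.8 FPKM of RPF. The Tpm1 to Tpm3 ratio was 1.78 and 1.67 for mRNA and 0.499 and 0.455 for RPF, and the Tpm1 to Tpm4 ratio was 1.19 and 1.05 for mRNA and 0.751 and 0.870 for RPF. Tpm3 was called higher in RPF (1.76 ± 0.24, adjusted p = 0.0293), while Tpm4 was not (0.37 ± 0.25, adjusted p = 0.355). Of Tpm1, Tpm3 and Tpm4, Tpm1 was thus the highest by mRNA and the lowest by RPF. For Tpm3, 70.8% of the coding windows occurred in another coding gene, against 0.966% for Tpm1 and 0.694% for Tpm4. Windows with 1 place or fewer in the genome made up 42.7% for Tpm3, 60.4% for Tpm4 and 99.0% for Tpm1. The Tpm3 and Tpm4 values are therefore uncertain where reads could be split.

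For the other members, the order was kept in both assays. The Tmsb10 to Tmsb4x ratio was 2.71 and 3.52 for mRNA and 1.16 and 1.08 for RPF, and Tmsb4x had a difference of 3.61 ± 0.31 (adjusted p = 0.0181). The Cfl1 to Dstn ratio, where Dstn encodes the related severing protein destrin, was 2.18 and 2.29 for mRNA and 1.203 and 1.56 for RPF. Cfl2, the muscle cofilin, was lower still, with Cfl1 at 24.2 and 33.4 times its level for mRNA and 14.3 and 11.02 times for RPF. In each of these pairs, the member's lead was smaller in both Ribo-seq libraries than in either RNA-seq library.

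The Actn4 to Actn1 ratio was 11.3 and 7.36 for mRNA and 4.09 and 4.35 for RPF. Actn1 had a difference of -0.77 ± 0.30 (adjusted p = 0.158). The light chain Myl6 exceeded its relative Myl6b by 1084 and 802 times for mRNA but by 39.7 and 39.8 times for RPF. Myl6b was called higher in RPF at 4.42 ± 0.28 (adjusted p = 0.0135), with mean levels of 1.64 FPKM of mRNA and 133 FPKM of RPF. Of its windows, 4.69% occurred in Myl6 without a mismatch and 13.6% with up to 2, and the part of Myl6 reads in its level was not tested. Of the villin relatives, Vill had 14.8 and 11.03 FPKM of mRNA and 28.3 and 19.4 FPKM of RPF, so the villin-like gene was above 0 in every library.

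The 4 muscle actins were described too, since their coding sequences matched that of Actb at 82.9% to 85.2% of compared bases. Acta1 had 3.05 and 3.90 FPKM of mRNA but 442 and 421 FPKM of RPF. Its difference (5.34 ± 0.25, adjusted p = 0.00882) was the largest among the 85 tested genes of the wider list. Acta2, Actc1 and Actg2 were under the minimum of 1 FPKM of mRNA and were not tested. Acta2 had 0.335 and 0.253 FPKM of mRNA and 155 and 127 FPKM of RPF. Actc1 and Actg2 were listed at 0 for mRNA in both libraries, and had 79.8 and 64.6 and 33.1 and 29.0 FPKM of RPF. The RPF order of these genes was Acta1, Acta2, Actc1 and Actg2.

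The share of coding windows also found in Actb or Actg1 was 6.41% for Acta1, 2.80% for Acta2, 0.452% for Actc1 and 0% for Actg2 without a mismatch. With up to 2 mismatches it was 29.7%, 21.3%, 21.7% and 21.1%. The muscle regulator Myog and the troponin Tnni2 were at 0 in every library, while other muscle markers were not. Ckm, the muscle creatine kinase, had 5.46 and 6.92 FPKM of mRNA and 5.95 and 1.09 FPKM of RPF. Tnnt2 had 2.36 and 4.61 FPKM of mRNA and 0 and 3.10 FPKM of RPF. Des had 1.67 and 0.947 FPKM of mRNA and 13.9 and 8.53 FPKM of RPF, and Myod1 had 0.441 and 0 FPKM of mRNA and 4.96 and 2.73 FPKM of RPF. The part of reads from Actb and Actg1 in the muscle actin values was not tested.

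**Figure D4:**
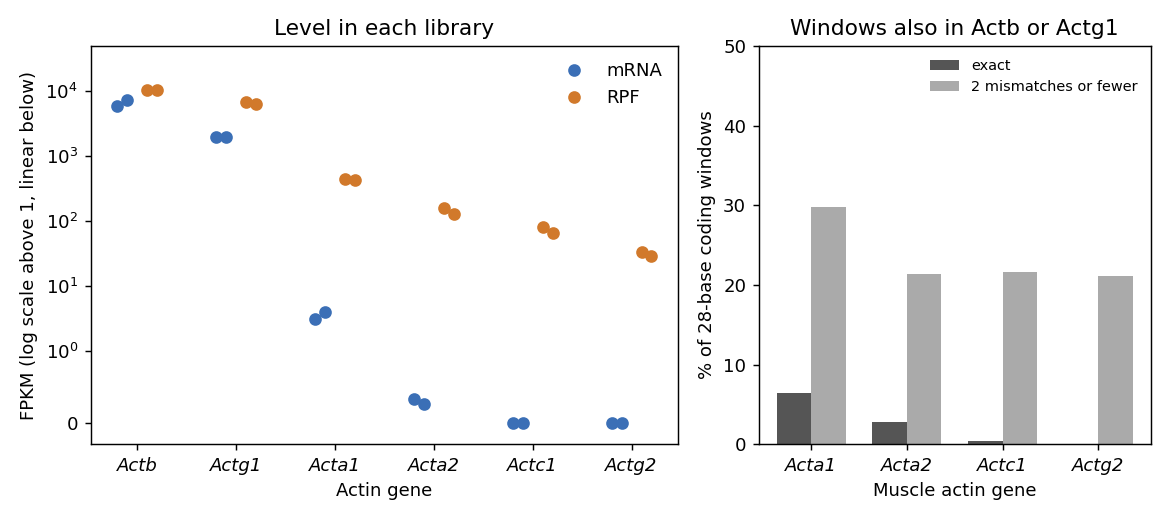
Left, FPKM of the 6 actin genes in each library (points), on an axis that is logarithmic above 1 and linear below. Right, percentage of 28-base coding windows of each muscle actin that also occur in Actb or Actg1, without a mismatch or with 2 or fewer. The muscle actins stand at 4 FPKM or less for mRNA and at 29.0 FPKM or more for RPF.

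The wider actin cytoskeleton was described by 10 lists of 114 genes, the 10 members included. Of these, 85 were tested, 20 were called higher in RPF and 3 lower, and the median difference was 0.56. Without the members, 18 of 76 were called higher and 2 lower, or 26.3%, beside 12.4% of all genes. The lists were chosen with earlier results of these data known, so these shares are a description only. In fits without either RNA-seq replicate, the spread came only from the Ribo-seq libraries, so the calls of the lists were not compared with them. A total of 8 listed genes were at 0 in all 4 libraries, among them Mylk, the myosin light chain kinase.

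Among 11 tested monomer-binding and severing genes, 4 were called higher, with a median of 1.15, where 9.13% of all genes were called higher. The same share is the background of the other lists. Besides Tmsb10, they included Tmsb4x and Cap1, a cyclase-associated protein that recycles monomers (1.88 ± 0.25, adjusted p = 0.0288). Of the 7 myosin II genes, Myh9 and Myl6b were called higher, and the median was 0.57. Of the 8 tropomyosin and calponin genes, Tpm3 and Tpm2 (1.72 ± 0.27, adjusted p = 0.0384) were called higher.

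The crosslinkers were the list with the lowest median, -0.77 over 7 genes, and they held calls in both directions. Actn4 was called lower, and the bundler Fscn1 was called higher (2.02 ± 0.32, adjusted p = 0.0376). All 12 genes of the Arp2/3 complex, which nucleates branched filaments, and of capping protein were tested. Of these, 5 were called higher, led by Arpc4 (3.06 ± 0.24, adjusted p = 0.0152), Arpc3 (3.05 ± 0.26, adjusted p = 0.0184) and Arpc1b (1.70 ± 0.29, adjusted p = 0.0425). Arpc1a, an alternative to Arpc1b in the same complex, was called lower (-2.37 ± 0.24, adjusted p = 0.0218).

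Enah, which protects growing filament ends, was the single call among 10 membrane linkers (2.84 ± 0.28, adjusted p = 0.0202). None of the 4 villin and gelsolin genes was called by limma, and 0 had an unadjusted p under 0.05. None of the 9 nucleators was called, and 2 had an unadjusted p under 0.05, beside 35.9% of all genes tested.

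**Figure D5:**
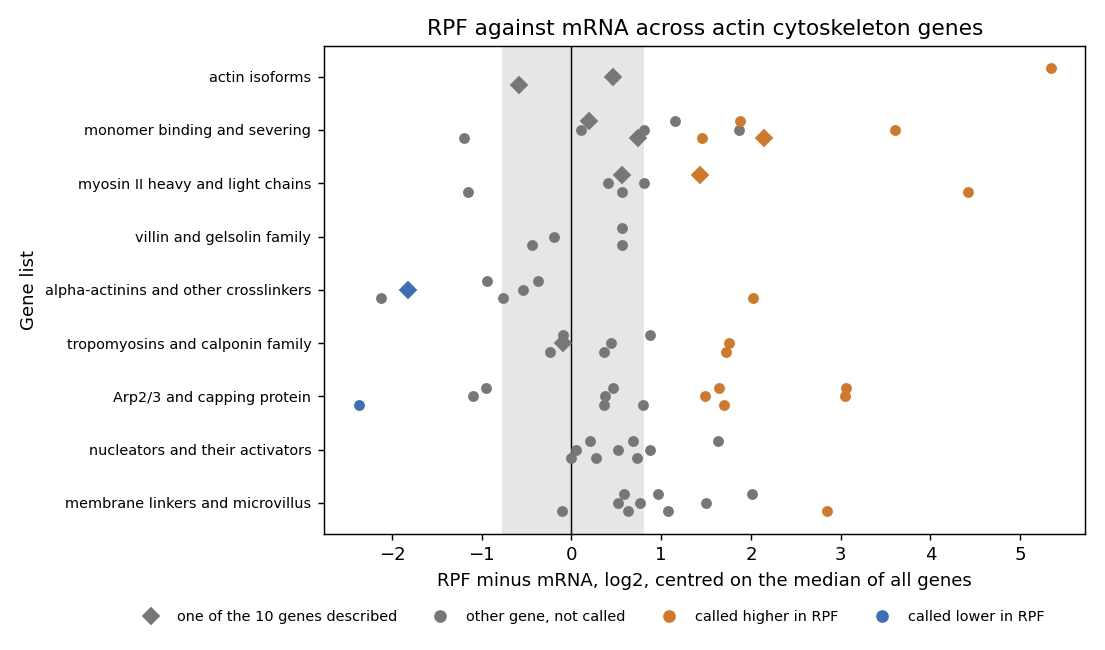
Centred log2 difference of RPF from mRNA for each tested gene of 9 of the lists (diamonds, the genes described singly above, and circles, the others). Colours mark genes called higher or lower, and grey shading marks the middle 50% of all genes. The crosslinkers sit mostly to the left of 0, and Acta1 is the point farthest to the right.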

How the data were processed

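Blastocyst RNA-seq and Ribo-seq (2 replicate libraries each) were analysed. The authors deposited FPKM per gene and library. They trimmed RNA-seq reads with Trim Galore (0.4.2) and Ribo-seq reads with cutadapt (1.14), removed rRNA reads from Ribo-seq with Bowtie2 (2.2.2), mapped to the mm9 transcriptome with STAR (2.5.3a, at most 20 places per read, and 2 mismatches in Ribo-seq), and ran Cufflinks (2.2.1) on transcripts or, for Ribo-seq, on coding sequences. The labels do not state the number of embryos per library or whether replicates were separate collections, so p-values may measure technical spread only.

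For a symbol listed more than once, the highest FPKM was used. RPF was set against mRNA with limma (3.58.1, R 4.3.3) on log2(FPKM+1), for genes with a mean of at least 1 FPKM in both assays, with centring on the median. This scale understates the change of low genes. Members and lists were chosen with earlier results of these data known. Every member was named, then its paralogs, and up to 3 called genes in each direction of a list. Implied fragments assumed Cufflinks' default fragment lengths (mean 200, SD 80 bases), with 67.8% to 86.9% of low values within 0.1 of a whole fragment, where chance gives 20%. As members share windows, their implied fragments need not be whole. Gene models and sequences came from GENCODE vM1 on NCBIM37, and 28-base windows were searched there with Python (3.11.15).

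The fit was tested on simulated data. With spreads from the moderated fit, it recovered 59.0% of 200 changed genes among 8292 (26.5% at a log2 change of 2), and 4.84% of its calls were on unchanged genes. That simulation replaced an earlier one, with spreads of single genes reassigned at random and smaller changes, in which the same fit recovered 0% of 200 genes among 8312. A gene that was not called is therefore not shown to be unchanged. Alternatives were the pseudocount, filters, centring, scaling, repeated symbols, the replicate number as a block, each library left out, the annotated length, and summed actins. The calls of 1 wider list and a shared actin stretch are not reported here.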

Additional observations from a re-analysis of the deposited data

How the results depend on the processing

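The 5 level ratios recomputed were Actb to Actg1, Tmsb10 to Actb, Myh9 to Myh10, Pfn1 to Cfl1 and Myl6 to Myh9. Summing repeated symbols left them unchanged. Scaling to equal sums keeps the ratio within each library, and leaving a library out returns the ratio of the other. These alternatives therefore could not show whether the ratios depend on the processing. With annotated lengths, Tmsb10 to Actb moved to 0.458 for mRNA and 1.61 for RPF, Pfn1 to Cfl1 to 2.58 and 1.402, and Myl6 to Myh9 to 41.4 and 17.7. Summing repeated symbols moved no count past 1.5 times. With a pseudocount of 0.1, 413 genes were called higher and 130 lower over all genes, 1 member (Tmsb10) and 12 wider-list genes were higher, and Myh9 was at 1.35. With genes above 0 FPKM, 134 were lower and Tpm1 was at 0.0076. At a minimum of 10 FPKM, 413 genes overall and 5 of the wider list were lower. Without centring, which adds 1.26 to every difference, 4113 genes were higher and 65 lower, 7 members were higher and 0 lower (7 with an unadjusted p under 0.05), and 64 and 1 of the wider list; Actg1 was at 1.72, Cfl1 at 2.003, Myl6 at 1.82, Pfn1 at 1.46, Actn4 at -0.56, Actb changed sign to 0.68, and Tpm1 (1.16), Capg (1.07), Cnn3 (1.16), Rhoc (1.10) and Rock2 (1.06) changed sign and passed the threshold. Quantile normalization gave 485 lower genes, 0 higher members (5 with an unadjusted p under 0.05), 12 and 5 calls in the wider list, Myh9 at 1.04, Tmsb10 at 1.01 (adjusted p = 0.0664) and Pfn1 at -0.062. With each library scaled to the same summed FPKM, 1 member was higher, with Myh9 at 1.13 and Pfn1 at -0.14. With annotated lengths, 1 member was higher, with Tmsb10 at 1.24 and Pfn1 at -0.20. These scalings moved the share of higher among all calls from 73.8% to 98.4%, 57.5% and 62.3% for no centring, quantile normalization and equal sums.

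With the replicate number as a block, 27 genes were called higher and 1 lower over all genes, and 0 in either direction among the members (3 with an unadjusted p under 0.05) and the wider list (35), with Tmsb10 at 2.15 (adjusted p = 0.0885), Myh9 at 1.44 (0.107) and Actn4 at -1.82 (0.0965). Deviations of same-numbered libraries had a correlation of 0.00994, so the numbers gave no sign of pairing.

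With each library left out in turn, calls ranged from 0 to 1359 higher and 0 to 1287 lower over all genes, 0 to 2 higher and 0 to 1 lower among members, and 0 to 25 higher and 0 to 9 lower in the wider list. Tmsb10 ranged from 1.87 to 2.22, Myh9 from 1.30 to 1.45, Actn4 from -2.13 to -1.76 and Tpm1 from -0.23 to 0.0080. Footprint depth limits what can be said of low genes such as Vil1.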

Other observations

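By their levels over the 4 libraries, the genes nearest to Actb among 8326 tested genes were Dppa5a, at 7039 and 6890 FPKM of mRNA and 12490 and 13128 FPKM of RPF, and Fabp3, at 7008 and 4882 FPKM of mRNA and 9162 and 9457 FPKM of RPF. Their distances from Actb on the log2 scale were 0.50 and 0.69. The genes nearest to Tpm1 were Rnasek (0.29) and Ndufc2 (0.32), each with an RPF level within 614 to 691 FPKM. Likeness of level over 4 libraries is a description only. No neighbour was sought for Vil1, which was under the minimum.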
